A study of Rattus norvegicus with 8 samples.

Results

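The 10 genes described here mark fibroblasts of the adventitia, the outer coat of the aorta: Pdgfra, Dpt, Pi16, Scara5, Cd248, Clec3b, Serpinf1, Fbln1, Gsn and Igfbp6. They were taken by symbol from a table of 18090 genes, and all 10 were found and passed the filter on low values. The table came from polyA RNA-seq of abdominal aorta of WT rats in 8 libraries. In 4 of them the vessel had been wrapped for 5 min in filter paper soaked in 10% FeCl3 (iron chloride), a salt that damages the vessel wall from outside and starts a thrombus, and in 4 the paper carried 0.9% saline. The comparison asks how the transcripts of a vessel with FeCl3 thrombosis differ from those of a saline control. Not stated here were strain, age, sex and the time from exposure to harvest. The libraries of a condition were stated to be biologically independent. Replicate numbers only name libraries and do not pair them.

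Adventitial fibroblasts lie between the smooth muscle of the media and the fat around the vessel. They make and organise the loose collagen of the outer wall, the side from which the FeCl3 paper was applied. A shared, so-called universal state of such cells, found around vessels of many organs, carries Pi16, Dpt, Cd248 and Clec3b, whereas Pdgfra marks most fibroblasts. No marker is exclusive: fat holds Pdgfra-positive precursor cells and its adipocytes also make Serpinf1, and smooth muscle also makes Gsn. Values are FPKM, the fragments mapped to a gene scaled by its length and by the library total, so levels can be compared between genes.

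The promoters shown are those of the members whose level differed most between libraries of a group among the 6 members with an entry in the RefSeq promoter table (build GRCr8). Each is the stretch of 250 bases before the transcription start, 5′ to 3′ on the gene's strand. Capitals mark matches on either strand to CAGCTG (an E-box, the kind of site read by basic helix-loop-helix factors), TATAAA (the TATA box), GGGCGG (a GC box) or TGACTCA (an AP-1 site). The motifs were chosen after the sequences were seen.
Dpt, chr13:79656091-79656340, + strand: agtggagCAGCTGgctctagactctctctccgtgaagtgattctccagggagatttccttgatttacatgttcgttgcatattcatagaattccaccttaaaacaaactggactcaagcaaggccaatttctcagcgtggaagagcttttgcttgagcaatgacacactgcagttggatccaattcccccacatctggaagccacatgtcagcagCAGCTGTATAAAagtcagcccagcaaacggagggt
Igfbp6, chr7:135154669-135154918, + strand: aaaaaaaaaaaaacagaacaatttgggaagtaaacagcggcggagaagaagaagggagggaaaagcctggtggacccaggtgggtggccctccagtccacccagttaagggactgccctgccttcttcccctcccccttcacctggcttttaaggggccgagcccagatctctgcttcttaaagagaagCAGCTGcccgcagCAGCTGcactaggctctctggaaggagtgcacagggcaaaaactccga
Pi16, chr20:7377703-7377952, + strand: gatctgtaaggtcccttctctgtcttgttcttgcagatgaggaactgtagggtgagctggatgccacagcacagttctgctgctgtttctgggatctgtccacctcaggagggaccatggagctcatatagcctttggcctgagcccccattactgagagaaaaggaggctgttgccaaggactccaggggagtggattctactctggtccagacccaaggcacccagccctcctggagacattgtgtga

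The letters CAGCTG stood in the promoters of 2 of the 6 members, Dpt and Igfbp6, and in 11.97% of 33469 promoter windows of this length. Both had 2 copies. In Dpt they began at positions -243 and -35, counted back from the start (-1 is the base before it), and the nearer copy ran directly into TATAAA at -29 without overlap. In Igfbp6 they began at -61 and -48. TATAAA was found in 1 of the 6 members (Dpt) and 12.93% of all windows, GGGCGG in 1 (Gsn) and 30.47%, and TGACTCA in 0 and 4.05%. In Pi16 none of the 4 motifs was present in the window shown.

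The members differed widely between libraries of the same condition, over a wider range than their group means, and the differences ran in parallel. FeCl3 replicates 1 and 2 and saline replicate 4 were high, FeCl3 replicate 4 and saline replicate 2 mostly lay in between, and FeCl3 replicate 3 and saline replicates 1 and 3 were low. No member passed the test of FeCl3 against saline. In bulk tissue, fewer fibroblasts and less RNA per fibroblast cannot be told apart. Library totals ran from 24304433 to 30283291 fragments, as recovered from the FPKM steps, and the fewest fragments of any member in any library were 50 (Pi16, saline replicate 1), so counting error was small beside the spread between libraries. Haemoglobin took 16.4% to 34.1% of the fragments after FeCl3, against 1.30% to 1.63% after saline, except for 16.5% in saline replicate 4.

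**Figure D1:**
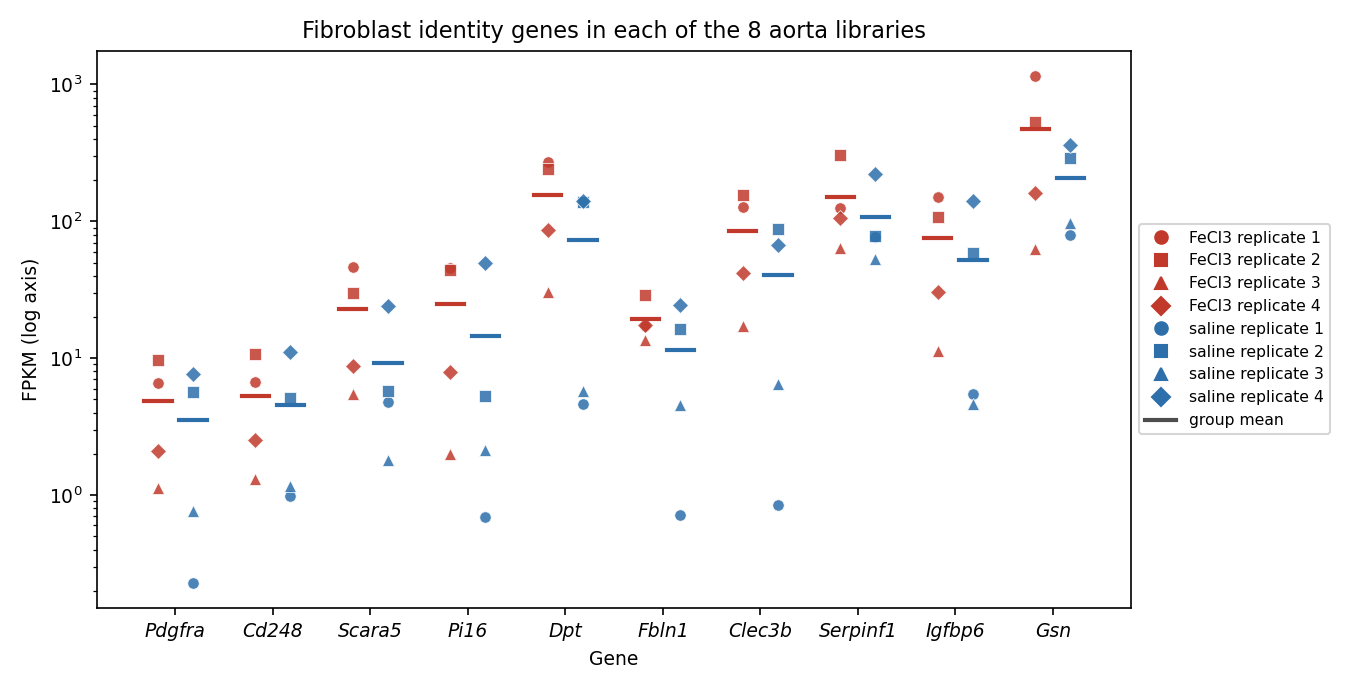
FPKM on a log axis of the 10 fibroblast identity genes, with 1 symbol per library (red FeCl3, blue saline, shape by replicate) and a bar for each group mean. In every gene the groups overlap, and saline replicate 4 (blue diamonds) lies among or above the FeCl3 libraries.

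Surface proteins came first. Pdgfra, the receptor for PDGF-A and other platelet-derived growth factors, measured 6.59, 9.72, 1.13 and 2.10 FPKM in FeCl3 replicates 1 to 4 and 0.23, 5.62, 0.769 and 7.61 FPKM in saline replicates 1 to 4. Its lowest value, in saline replicate 1, rested on 53 fragments (95% Poisson interval 0.172 to 0.301 FPKM, for counting error only). The groups overlapped over nearly their whole range, and the log2 fold change was 0.53 ± 0.75 (SE). Cd248, the C-type lectin endosialin, measured 6.67, 10.8, 1.30 and 2.51 FPKM after FeCl3 and 0.991, 5.10, 1.17 and 11.0 after saline. Here a saline library, replicate 4, was the highest of all 8. Its log2 fold change of 0.30 ± 0.70 (SE) turned negative when FeCl3 replicate 2, saline replicate 1 or saline replicate 3 was left out. For these low genes the size depended on the scale. With a pseudocount of 0.1 in place of 1, Pdgfra was at 0.95 and Cd248 at 0.44 (limma adjusted p = 0.676 and 0.820). In limma voom they were at 1.33 and 0.85 (adjusted p = 0.622 and 0.700).

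Scara5, a scavenger receptor that binds ferritin and so can bring iron into cells, measured 46.5, 30.0, 5.48 and 8.72 FPKM after FeCl3 and 4.79, 5.76, 1.81 and 24.2 after saline. FeCl3 replicates 1 and 2 stood above all controls, and saline replicate 4 stood above FeCl3 replicates 3 and 4 (log2 fold change 1.27 ± 0.80 SE). Pi16, a peptidase inhibitor family protein that marks the universal fibroblast state, measured 45.8, 43.8, 1.99 and 7.92 FPKM after FeCl3 and 0.693, 5.25, 2.14 and 49.6 after saline. Its highest value was a control, saline replicate 4, at 49.6 FPKM, while the other 3 controls did not exceed 5.25. Between the highest and the lowest control Pi16 differed 71.5-fold, whereas the group means differed 1.73-fold (24.9 ± 23.1 and 14.4 ± 23.5 FPKM, SD, n = 4 each).

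Next came the secreted and matrix proteins. Dpt, dermatopontin, which binds decorin and helps to assemble collagen fibrils, measured 270.1, 239.8, 30.6 and 86.5 FPKM after FeCl3 and 4.65, 139.2, 5.72 and 140.3 after saline. Only FeCl3 replicates 1 and 2 lay above all controls, and saline replicates 1 and 3 were lower than every FeCl3 library. Its log2 fold change of 1.98 ± 1.25 (SE) had a 95% interval of -0.86 to 4.82. That of Clec3b was close to it, at 1.88 ± 1.27 (SE), and which of them was larger changed with the pseudocount. Fbln1, fibulin 1, a glycoprotein of elastic fibres and basement membranes, measured 17.1, 29.0, 13.6 and 17.5 FPKM after FeCl3 and 0.715, 16.4, 4.53 and 24.3 after saline. After FeCl3 it was the most even member, with a 2.13-fold range, but among the controls the range was 34.0-fold. Its log2 fold change of 1.28 ± 0.77 (SE) came with the smallest adjusted p of the 10, 0.408 by limma.

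Clec3b, tetranectin, a secreted lectin that binds plasminogen, measured 126 FPKM in FeCl3 replicate 1 and 156, 17.1 and 41.9 in the others, against 0.851, 87.5, 6.51 and 67.7 after saline. It had the widest range of any member among the controls, 103-fold, with only 57 fragments in saline replicate 1. Serpinf1, pigment epithelium-derived factor, an inhibitor of vessel growth, measured 126, 306, 63.6 and 106 FPKM after FeCl3 and 76.9, 77.9, 53.3 and 221 after saline. It varied least between libraries of the 10. Saline replicate 1 was among its 3 lowest libraries too, but by a far smaller margin than for Clec3b. Igfbp6, which binds insulin-like growth factor II, measured 151, 108, 11.3 and 30.7 FPKM after FeCl3 and 5.43, 59.1, 4.64 and 141 after saline. Saline replicate 4 was nearly as high as FeCl3 replicate 1, and saline replicates 1 and 3 were below every FeCl3 library.

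Gsn, gelsolin, which severs actin filaments inside cells and in a secreted form clears actin from plasma, was the most abundant member. It measured 1151, 529, 62.7 and 161 FPKM after FeCl3 and 79.0, 290, 97.9 and 358 after saline. FeCl3 replicates held both the highest and the lowest of its 8 values. Its log2 fold change of 0.73 ± 0.91 (SE) rested on single libraries: it was 0.06 without FeCl3 replicate 1 and 1.45 without FeCl3 replicate 3.

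In limma on log2(FPKM + 1), 0 of the 10 members passed a Benjamini-Hochberg adjusted p under 0.05, as did 0 of the 11921 genes tested (0.0%). Adjusted p-values of the members ran from 0.408 (Fbln1) to 0.841 (Cd248). At an unadjusted p under 0.05 there were 0 members, where 16.6% of all genes tested had one, and limma voom on the recovered fragments likewise called 0 genes and gave 0 members an unadjusted p under 0.05. The FeCl3 and saline values overlapped for all 10 members, where 9.81% of all genes tested had groups that did not overlap. All 10 log2 fold changes were positive, whereas 29.8% of all genes tested had a positive one. With FPKM rescaled to TPM (each library to the same sum) the median of all genes moved to -0.90, and 7 of 10 members were positive (all but Cd248, Serpinf1 and Gsn) where 10.4% of all genes were. Relative to all genes the members' median was nearly the same with TPM, 1.45. Under TPM 27.6% of all genes passed the adjusted threshold and 0 members did. The median over the members was 1.18, that over all genes -0.25, and the difference 1.42. These counts describe genes that move together and are not 10 independent observations.

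**Figure D2:**
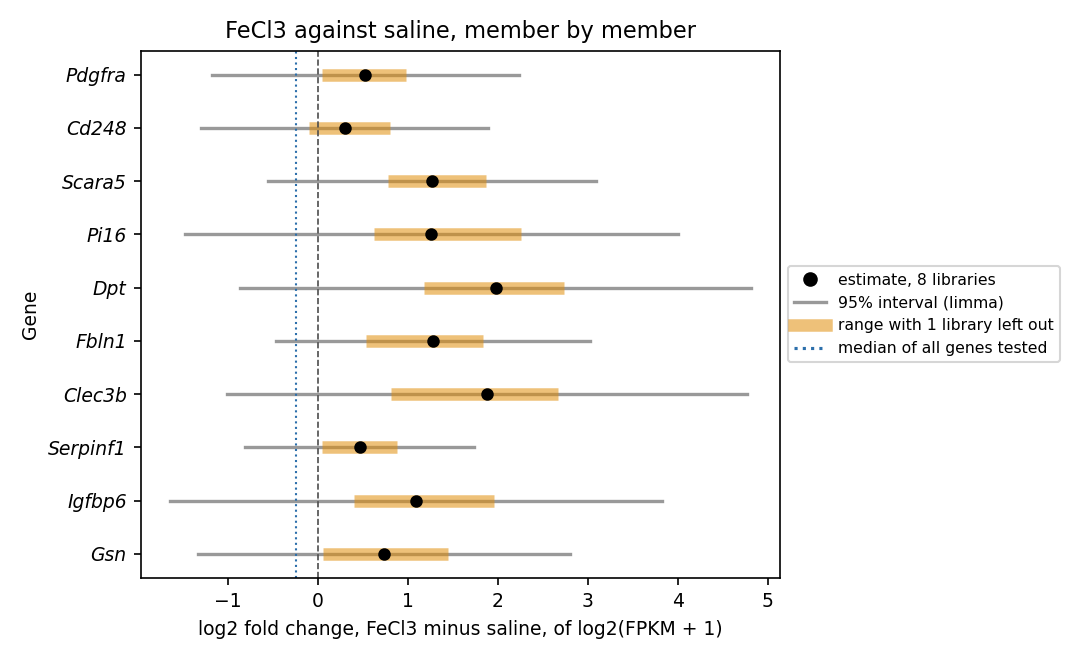
Log2 fold change of each member (FeCl3 minus saline, black points) with its 95% limma interval (grey) and the range when 1 library is left out (orange). All 10 intervals include 0, and the dotted line marks the median of all genes tested, -0.25.

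Single libraries set the size of this difference. Without saline replicate 1 or 3, the controls with the lowest levels, the median of the members relative to all genes was 0.84 or 0.82 in place of 1.42, and without FeCl3 replicate 1 it was 0.92. Without saline replicate 4 it was 2.10, and Scara5 and Fbln1 then passed an unadjusted threshold of 0.05 in limma (log2 fold changes 1.87 and 1.83, adjusted p = 0.258 and 0.257), 2 of 10 members where 17.1% of all genes tested did. That library was the control with the highest Scara5 and Fbln1, so leaving it out favours those values. Without both saline replicates 1 and 4 it was 1.53. Among single members, Pdgfra was at 0.05 without saline replicate 1 and Serpinf1 at 0.05 without FeCl3 replicate 2. In these fits 0 members passed the adjusted threshold, and so did 0 of all genes except without saline replicate 4 (160 genes, 1.34%) and without both saline replicates 1 and 4 (51 genes, 0.428%).

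The spread within groups was the main feature of these genes. The residual SD of the members, on the log2(FPKM + 1) scale, ran from 0.91 (Serpinf1) to 2.15 (Clec3b), against a median of 0.45 over all genes tested, and each member stood between the 83.4th and the 98.9th percentile of all genes. For all 10 members the ratio of the highest to the lowest control exceeded the ratio of the group means, and the same held for the ratio within FeCl3. The share of all genes for which this holds was not computed. Among 4 libraries a highest-to-lowest ratio easily exceeds a ratio of means, so this does not set the members apart. With the values as deposited, the 3 lowest libraries were the same for all 10 members: FeCl3 replicate 3 and saline replicates 1 and 3. Of all genes tested, 7.64% were lowest in these 3 libraries. For Scara5 and Serpinf1 the margin was narrow. Scara5 had 5.48 FPKM in FeCl3 replicate 3 (95% Poisson interval 5.03 to 5.97) and 5.76 in saline replicate 2 (5.28 to 6.27), and Serpinf1 had 76.9 in saline replicate 1 (74.3 to 79.6) and 77.9 in saline replicate 2 (75.0 to 81.0). With median-of-ratios scaling 7 members kept this set of libraries (all but Scara5, Serpinf1 and Fbln1) and with TPM 8 (all but Serpinf1 and Gsn), where 5.33% and 3.51% of all genes did. At the upper end, FeCl3 replicate 2 was among the 3 highest libraries for all 10 members, and FeCl3 replicate 1 and saline replicate 4 for 9 each. For the upper end the share of all genes was not computed.

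Within this shared order the proportions of the members differed. The FPKM ratio of Pi16 to Dpt was 0.170, 0.183, 0.0651 and 0.0915 in FeCl3 replicates 1 to 4 and 0.149, 0.0377, 0.374 and 0.353 in saline replicates 1 to 4. Saline replicates 2 and 4 thus had nearly the same Dpt, 139.2 and 140.3 FPKM, but 5.25 and 49.6 FPKM of Pi16. Scara5 followed Pi16 in this pair, with ratios to Dpt of 0.0414 and 0.173. Serpinf1 and Gsn kept a level where Dpt was at 4.65 and 5.72 FPKM: the ratio of Serpinf1 to Dpt was 16.6 and 9.31 in saline replicates 1 and 3 and 0.465 to 2.08 in the other 6 libraries. For Gsn it was 17.0 and 17.1 in those controls and 1.86 to 4.26 in the others. The ratio of Scara5 to Dpt was also highest in those controls, at 1.03 and 0.316, against 0.0414 to 0.1795 in the others. That of Fbln1 to Dpt was highest in saline replicate 3, at 0.792, but 0.154 in saline replicate 1. Igfbp6 and Clec3b stayed closer to Dpt. The ratio of Igfbp6 to Dpt was 0.354 to 0.558 in 5 libraries and 1.17, 0.81 and 1.01 in saline replicates 1, 3 and 4. For Clec3b it was 0.468 to 0.652 in 6 libraries, 0.183 in saline replicate 1 and 1.14 in saline replicate 3.

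Other fibroblast genes did not all share the members' order. Of 35 listed, 33 were in the table and 32 tested. Of these, 17 had a positive and 15 a negative log2 fold change, where 29.8% of all genes tested had a positive one. Their median was 0.04, against -0.25 over all genes tested, and 0 of the 32 passed. An unadjusted p under 0.05 was found for 2, 1 in each direction (Lsp1 and Col15a1), where 16.6% of all genes tested had one. The most abundant were Col3a1, Ogn, Dcn and Col1a2. Dcn, decorin, a small proteoglycan on collagen fibrils, went with the members, at 1000.3, 1638, 234.9 and 460.1 FPKM after FeCl3 and 14.4, 469.6, 52.2 and 685.3 after saline (log2 fold change 2.35 ± 1.21 SE, limma adjusted p = 0.349). The fibrillar collagens did not. Col3a1 measured 1094 FPKM in saline replicate 1, where Dpt was lowest, and 727 in FeCl3 replicate 1, where Dpt was highest (log2 fold change 0.03 ± 0.43 SE, adjusted p = 0.976). For Col1a2, another fibrillar collagen chain, the log2 difference was -0.49 ± 0.48 (SE), with an adjusted p of 0.614. Ogn, osteoglycin, was lowest in saline replicate 2, at 150.1 FPKM, and differed by 0.83 ± 0.61 log2 units (SE) between the groups (adjusted p = 0.492). In all, 10 of the 32 genes, Dcn, Lum and Cd34 among them, were lowest in the same 3 libraries as the members, where 7.64% of all genes tested were.

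A list of activated fibroblast genes held 16, of which 14 were tested. A positive log2 fold change was found for 4 and a negative one for 10 (median -0.62), a share of positive ones near the 29.8% of all genes. Of the 14, 0 passed, and 4 had an unadjusted p under 0.05 (Cthrc1, Fap and Ccl2 higher and Tnc lower after FeCl3). Of all genes tested, 16.6% had such a p. None of the 14 was lowest in the members' 3 libraries, where 7.64% of all genes tested were. That share is too small for 0 of 14 to set this list apart from all genes. The most abundant, Fn1, Postn, Lox and Spp1, differed by -0.90, -0.71, -0.20 and -0.62 log2 units. Their adjusted p-values in limma were 0.506, 0.516, 0.901 and 0.702 in the same order. Saline replicate 1, the lowest library for 6 members, was the highest for 3 of these 4: fibronectin (Fn1) reached 617 FPKM there, periostin (Postn) 439 and osteopontin (Spp1) 463. Several of these genes are also made by smooth muscle.

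**Figure D3:**
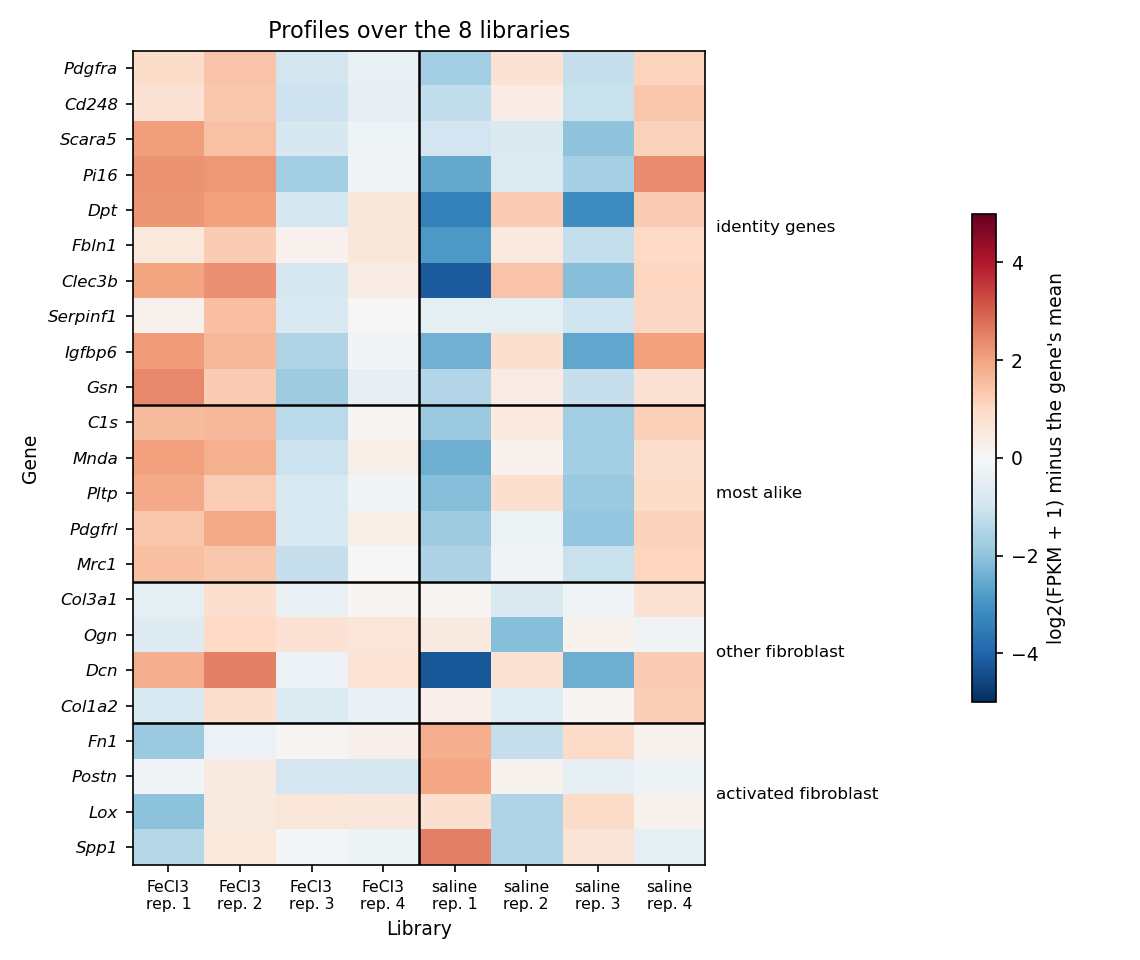
Log2(FPKM + 1) minus the mean of each gene over the 8 libraries (colour) for the members, the 5 genes with the most similar profile and the 4 most abundant genes of each other fibroblast list. The members and the similar genes are blue (low) in saline replicates 1 and 3. All of them but Fbln1 are also blue in FeCl3 replicate 3. Fn1, Postn and Spp1 are red (high) in saline replicate 1.

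The genes most like the members were C1s, Mnda, Pltp, Pdgfrl and Mrc1, by the root mean square difference between centred log2(FPKM + 1) profiles over 8 libraries. The difference from the members' mean profile was 0.17 for C1s, a protease of the complement system, and 0.30, 0.31, 0.33 and 0.37 for the others in that order, where the median over all genes was 1.42. Single members lay 0.39 (Pdgfra) to 0.88 (Clec3b) from their own mean. C1s measured 50.8, 53.2, 5.84 and 17.4 FPKM after FeCl3 and 3.88, 23.2, 4.18 and 38.7 after saline. Mrc1, the mannose receptor of tissue macrophages, measured 8.72, 7.59, 0.527 and 2.46 after FeCl3 and 0.170, 2.12, 0.560 and 6.18 after saline.

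White adipocyte markers varied with the members. All 10 markers were tested and had a positive log2 fold change (median 1.28), where 29.8% of all genes tested had one. Of the 10, 0 passed and 0 had an unadjusted limma p under 0.05, where 16.6% of all genes had one. With the values as deposited all 10 were lowest in FeCl3 replicate 3 and saline replicates 1 and 3, where 7.64% of all genes were. With TPM this held for 8 of the 10 markers and for 3.51% of all genes. The summed FPKM of the markers was 13044, 11566, 463 and 3041 in FeCl3 replicates 1 to 4 and 2.37, 9995, 368 and 2071 in saline replicates 1 to 4. In saline replicate 1, 4 of the 10 were at 0. The 2 lists were not parallel throughout: the mean log2 level of the members minus that of the adipocyte markers was -3.36 in saline replicate 2 and -0.43 in saline replicate 4. Smooth muscle markers, which define the media of the labelled tissue, were abundant in all libraries, with summed FPKM of 4015 to 11504 after FeCl3 and 5524 to 28661 after saline, the highest in saline replicate 1 and the lowest in FeCl3 replicate 1. Endothelial markers summed to 176 to 265 FPKM after FeCl3 and 54.2 to 273 after saline, the lowest again in saline replicate 1. Leukocyte markers summed to 353 to 789 FPKM after FeCl3 and 3.98 to 592 after saline, and red cell markers to 280025 to 607123 and 22350 to 282936. Both saline maxima were those of replicate 4. The other controls reached at most 80.5 FPKM for leukocyte and 28146 for red cell markers, below every FeCl3 library. Pericyte markers summed to 422 to 1302 after FeCl3 and 593 to 1821 after saline, and Schwann cell markers to 165 to 1044 and 278 to 1549. Mesothelial markers summed to at most 10.2 FPKM in 7 libraries and to 507 in saline replicate 2. The part of each of these cell types in the members' levels was not tested.

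**Figure D4:**
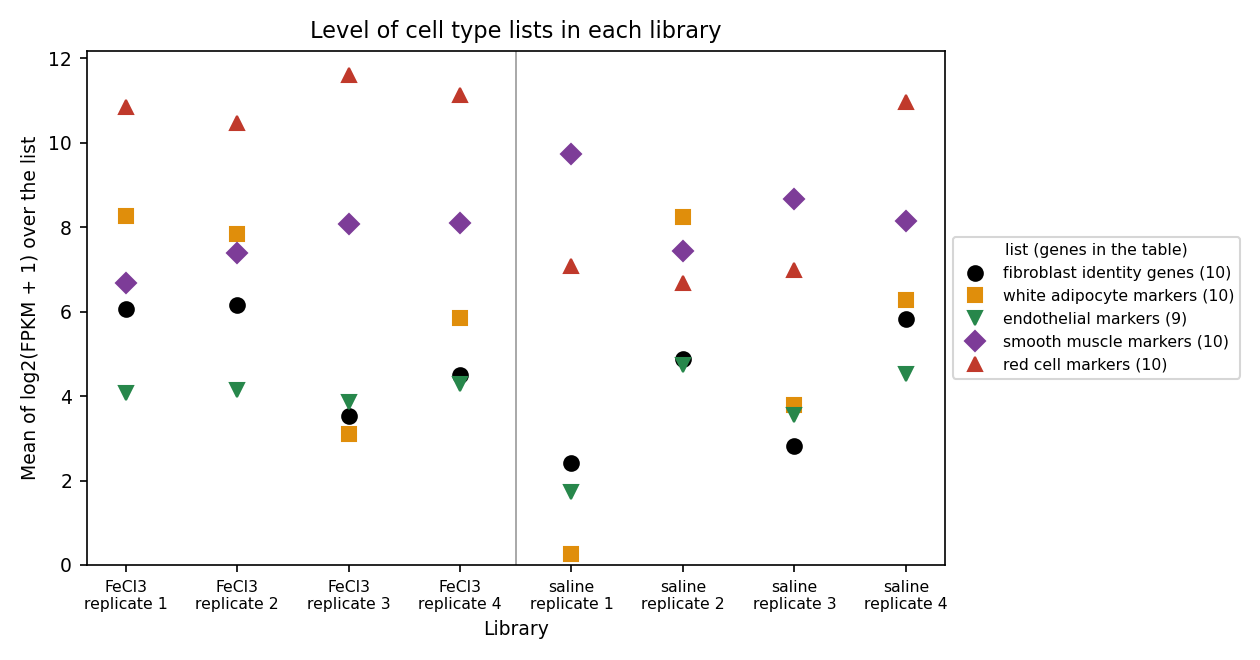
Mean of log2(FPKM + 1) over the fibroblast identity genes (black circles) and over marker lists of other cell types in each library. Fibroblast and adipocyte levels are both low in FeCl3 replicate 3 and saline replicates 1 and 3, and smooth muscle is highest in saline replicate 1.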

How the data were processed

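PolyA RNA of rat abdominal aorta was measured in 8 libraries, 4 per group, which the labels place in 1 batch. The deposited values are FPKM, computed by the authors, 1 per gene and library. Per the submitters' processing notes, fastp, HISAT2 and HTSeq were used with the build mRatBN7.2. Tool versions, annotation and gene lengths are not given in the sources used here. Columns were matched to samples by title. Fragments were recovered as the smallest whole numbers in proportion to a gene's values (tolerance 0.02), for 100% of 18090 genes. Totals were set where most gene lengths came out whole (99.8%). The fragments of 332 genes were then multiplied by a small factor to make the length whole, and those of Hbb were doubled. In no pair of libraries did more than 0.39% of well-covered genes have equal fragments, so none was treated as a duplicate.

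The 11921 genes at 1 FPKM or more in 4 or more libraries were tested as log2(FPKM + 1), a scale that understates changes of low genes. The test was limma 3.58.1 in R 4.3.3, two-sided and with a mean trend. P-values were adjusted over all 11921 genes by the Benjamini-Hochberg method, with a threshold of 0.05. The fit and the recovery were tested on simulated data. Limma voom on the recovered fragments, with median-of-ratios library sizes, was added after seeing the data. The members, lists and alternatives were chosen with earlier results of these data known. Named genes were all members, the 4 most abundant tested genes of both other fibroblast lists and the 5 with the most similar profile; Lsp1, Col15a1, Lum, Cd34, Cthrc1, Fap, Ccl2, Tnc and those in the closing section were named after their values were seen. Figures used matplotlib 3.10.9.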

Additional observations from a re-analysis of the deposited data

Results flagged for a closer look

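In saline replicate 4, Pi16 was 49.6 FPKM and Serpinf1 221 FPKM. Each stood apart from the other 3 controls, by 0.907 and 0.853 of the range of its group in FPKM. Both gaps were above the 95% critical value of Dixon's test for 4 samples. These were 2 of 20 groups checked (10 members in 2 conditions). The rate of about 1 in 20 by chance holds for normally distributed values, FPKM are skewed, and the members are not independent of each other. On the log2(FPKM + 1) scale the gaps took less of the range, and neither reached the critical value of Dixon's test. There Pi16 was 5.66 against 0.76, 2.64 and 1.65 in saline replicates 1 to 3, and Serpinf1 7.80 against 6.28, 6.30 and 5.76.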

How the results depend on the processing

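No paired analysis was possible because the replicate numbers follow accession order and carry no pairing. Over 19 alternatives 0 members passed the threshold, with adjusted p-values from 0.257 to 0.99989. The alternatives on the low-value filter and on the limma trend leave each fold change as it was, so none could reverse there. Of the 190 member fold changes over all alternatives, 183, the unchanged ones included, kept their direction and 7 reversed. With TPM these were Cd248 (-0.21), Serpinf1 (-0.26) and Gsn (-0.0001); with array weights Cd248 (-0.096); and with 1 library left out Cd248 again, which ran from -0.092 without FeCl3 replicate 2 to 0.805 without saline replicate 4. It was also below 0 without saline replicate 1 (-0.059) or saline replicate 3 (-0.018). The median of the members relative to all genes was 0.77 with array weights and 0.82 to 2.10 with 1 library left out. With TPM, where 3288 of 11921 genes passed and 3223 of those were lower after FeCl3, 6 other fibroblast genes (Col5a1, Col6a1, Col6a3, Col15a1, Ebf1 and Smoc2) and 1 activated fibroblast gene (Tnc) passed, all lower. The cause was not tested. Depth did not limit the members, since the fewest fragments were 50.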

Other observations

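Some fibroblast genes outside the members peaked in saline replicate 2, the library with the high mesothelial markers. Cxcl14, a chemokine, measured 105.9 FPKM there and at most 14.0 elsewhere. Tcf21, a transcription factor of fibroblast precursors, measured 10.4 and at most 2.17 elsewhere, and Anxa3 25.8 and at most 10.9. Pi16 and Scara5 were at 5.25 and 5.76 FPKM in that library, below their values in FeCl3 replicates 1, 2 and 4 and saline replicate 4.

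Mfap5, a microfibril protein of the same outer-wall fibroblasts, measured 61.2, 81.4, 17.8 and 27.6 FPKM after FeCl3 and 2.36, 13.5, 5.40 and 57.5 after saline. As in Pi16, saline replicate 4 stood well above the other controls. Its log2 fold change was 1.81 ± 0.86 (SE, limma adjusted p = 0.319).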
